A study of Arabidopsis thaliana with 12 samples.

Results

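Plants lacking a photosystem I subunit were compared with the wild type for 3 Arabidopsis thaliana genes of the defence against superoxide and peroxide in plastids. They are the copper chaperone CCS (AT1G12520), the sulfiredoxin SRX (AT1G31170) and the peroxiredoxin PRXIIE (AT3G52960). A member had to have a probe annotated with that gene and no other, which gave 3 probes, 1 for each gene, of the 690 on the array that could be matched to a single locus, and of 3439 probes in all. No probe with several genes listed any of the 3. The groups were psah2, a mutant that its submitters describe as missing the photosystem I protein PSI-H2, and WT, both of ecotype Columbia 0, with total RNA of 6 samples each on single-colour arrays. The labels used here give no tissue, age, growth condition or kind of mutant allele. They also leave unsaid whether each array had its own plants, and the p-values below therefore rest on a spread between arrays that may be technical.

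Superoxide forms in plastids when electrons from photosystem I reach oxygen instead of ferredoxin. Superoxide dismutases turn it into hydrogen peroxide, and the copper-zinc enzymes among them need CCS to receive their copper. Peroxidases and peroxiredoxins then reduce the peroxide. The peroxiredoxins do so with electrons that come, by way of thioredoxins or glutaredoxins, from ferredoxin or NADPH. PRXIIE is a stromal peroxiredoxin of this kind. SRX reactivates peroxiredoxins of the typical 2-Cys class, to which PRXIIE does not belong, after peroxide has overoxidised their catalytic cysteine. In Arabidopsis CCS also serves the cytosol, and SRX is also found in mitochondria, so neither is a plastid protein alone.

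The 3 probes gave 2 patterns. PRXIIE was above 0 on all 6 WT arrays and was listed at 0 on 5 of 6 psah2 arrays. Zeros on at least 5 psah2 arrays and on no WT array were found for 3.17% of all 3439 probes. CCS and SRX were measured on all 12 arrays, and their deposited intensities were lower in psah2 on every array, with means of 42.3% of the WT mean for CCS and 44.7% for SRX. Most of the table was dimmer in psah2 by more than that. By rank within their own arrays CCS and SRX thus stood higher in psah2 than in WT, a call that 22.2% of all probes shared. Whether a rise in scaled log2 intensity passed the test depended on the scaling, and as deposited both genes fell.

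The arrays of the groups differed as a whole, which touches each result below. The median deposited intensity, on a linear scale that ends at 100, was 0.0946 ± 0.0037 on psah2 arrays and 0.339 ± 0.033 on WT arrays (SD, n = 6 each). Between 20.1% and 22.5% of probes were listed at 0 on a psah2 array, and between 13.0% and 13.7% on a WT array. Whether this came from the plants, the RNA or the handling of the arrays cannot be told apart, nor can fewer cells of a type from less RNA per cell. The annotation used here paired no probe with PSAH2 or its near-identical copy PSAH1, so the labels were not checked by the mutated gene. Of 11 markers of green tissue 2 had a probe of their own, PRK and LHCB1.5, with mean intensities of 6.96 and 34.9 in psah2 against 1.59 and 12.2 in WT. None of the 7 root and seed markers had one.

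CCS, the chaperone that loads copper onto copper-zinc superoxide dismutase, was measured on every array. Its deposited intensity ran from 0.0346 to 0.0806 with a median of 0.0651 on psah2 arrays, and from 0.126 to 0.183 with a median of 0.144 on WT arrays. The groups did not overlap, and the lowest of all was psah2 replicate 1. The means were 0.0631 ± 0.0171 in psah2 and 0.149 ± 0.020 in WT (SD, n = 6 each).

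SRX, the reductase of overoxidised peroxiredoxins, followed the same course. Its deposited intensity ran from 0.0807 to 0.146 with a median of 0.115 on psah2 arrays, and from 0.209 to 0.362 with a median of 0.230 on WT arrays. The means were 0.117 ± 0.026 in psah2 and 0.262 ± 0.066 in WT (SD, n = 6 each). The WT arrays fell into a higher pair, replicates 1 and 2 at 0.326 and 0.362, and 4 arrays between 0.209 and 0.242. In psah2 the highest arrays were replicates 5 and 6 at 0.145 and 0.146, and the lowest was replicate 3.

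**Figure D1:**
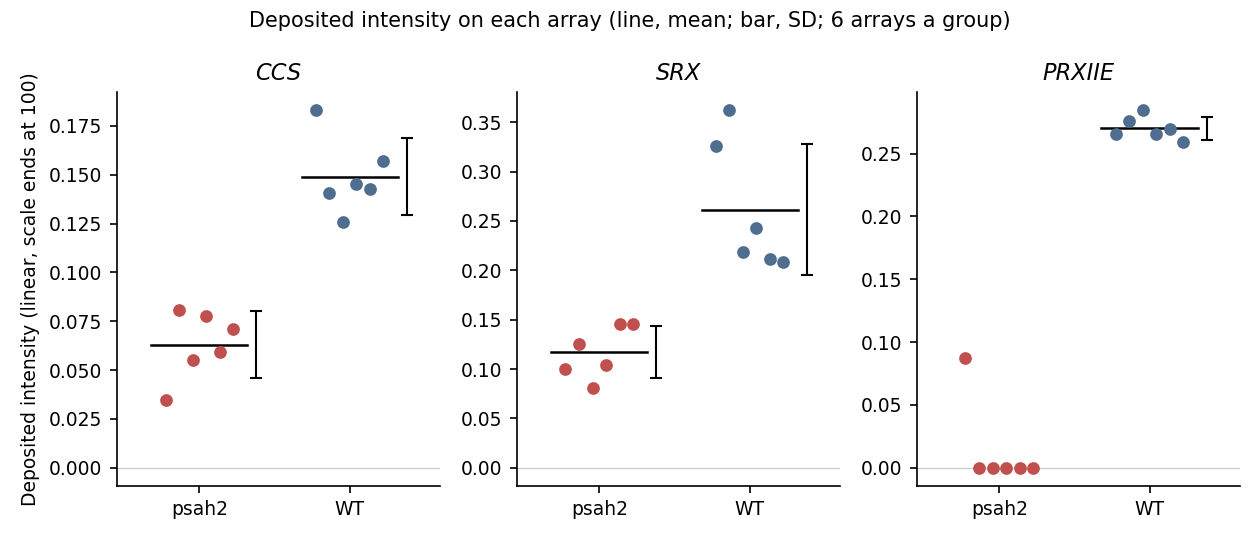
Deposited intensity (linear scale, vertical axis) of the CCS, SRX and PRXIIE probes on each of 6 psah2 and 6 WT arrays, 1 point per array in order of replicate number, with the mean as a line and the SD as a bar. No mean is drawn for PRXIIE in psah2, where 5 of 6 arrays are listed at 0, and for each gene every psah2 array lies below every WT array.

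Every psah2 array was below every WT array for each of the 3 genes. The same held for 57.3% of all 3439 probes, so this separation is common in the table. In the log2 values as deposited the changes were -1.28 for CCS (SE 0.20, 95% interval -1.72 to -0.85, adjusted p = 6.43e-05) and -1.16 for SRX (SE 0.20, 95% interval -1.59 to -0.73, adjusted p = 0.00014). These are fits with limma over 2643 probes with Benjamini-Hochberg adjustment, and both genes fell. On this scale 77.5% of tested probes were lower in psah2, 9.5% were higher and the median change was -1.64. CCS lay above 61.1% of the tested probes in its change and SRX above 65.5%.

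Arrays were therefore also brought to a common distribution by quantile normalization, so that a change on that scale is one against the rest of the array. Normalized log2 intensities of CCS ran from -3.76 to -2.78 in psah2 and from -4.16 to -3.53 in WT. Of the psah2 arrays only replicate 1 lay within the WT range. CCS rose 1.63-fold on this scale (log2 change 0.71, SE 0.18, 95% interval 0.315 to 1.098, n = 6 each, limma, adjusted p = 0.00464). SRX ran from -2.77 to -2.05 in psah2 and from -3.16 to -2.42 in WT, and here the groups overlapped, since WT replicates 1 and 2 stood as high as the lower psah2 arrays. It rose 1.42-fold (log2 change 0.51, SE 0.16, 95% interval 0.15 to 0.86, n = 6 each, limma, adjusted p = 0.0178), a call that was lost when consecutive replicates were averaged (adjusted p = 0.131). Thus, with the 6 arrays taken as separate, 2 of the 2 members that could be tested were called higher, where 25.2% of the tested probes were higher in psah2, 36.2% were lower and the median change was -0.26.

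How far the rises held depended on the scaling. With cyclic loess the log2 change was 0.84 for CCS (adjusted p = 0.00474) and 0.71 for SRX (adjusted p = 0.00273), where 27.2% of tested probes were higher. With each array centred on the median of its values above 0, it was 0.14 for CCS (limma, adjusted p = 0.553) and 0.27 for SRX (adjusted p = 0.196), and neither passed the test, which 27.7% of probes passed as higher. Centred on the median of all values, zeros included, CCS was at 0.55 (adjusted p = 0.0284) and SRX at 0.68 (adjusted p = 0.00247), and 37.5% of probes were higher. These centrings differ only in whether zeros enter the median, and both calls turned on it. In all 5 scalings both genes lay above the median change of all tested probes, by 0.97 and 0.77 on the log2 scale after quantile normalization and by 0.35 and 0.48 as deposited, for CCS and SRX in that order.

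**Figure D2:**
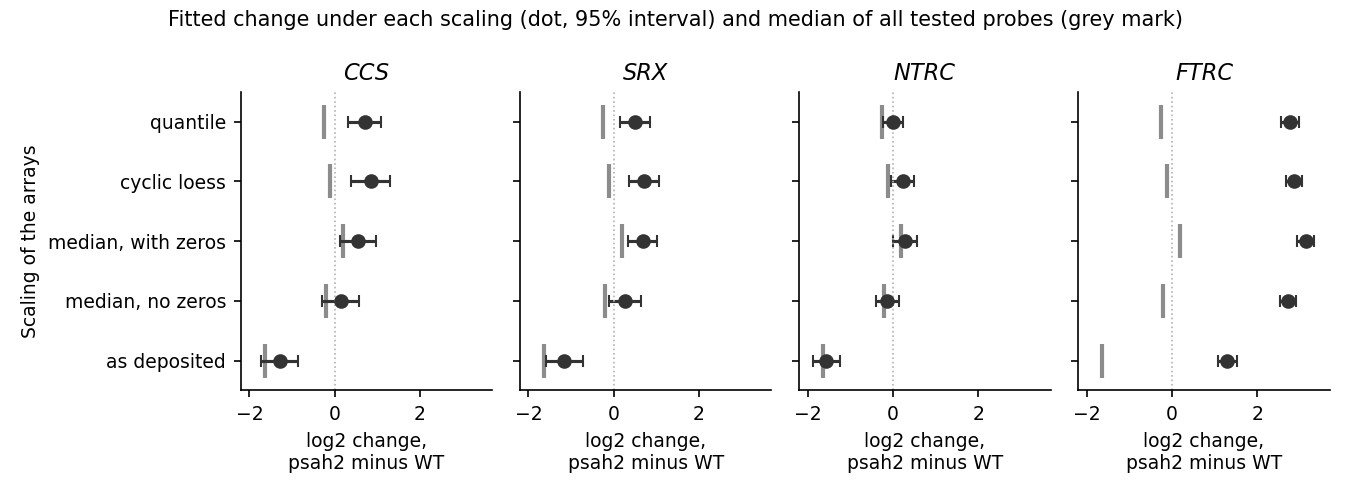
Fitted log2 change, psah2 minus WT (horizontal axis), of CCS, SRX and the thiol donors NTRC and FTRC under 5 scalings of the arrays, as dots with 95% intervals from limma, 6 arrays a group. The grey mark is the median change of all tested probes, and the dots of CCS and SRX lie right of it in each row while their sign turns between the quantile-normalized values (0.71 and 0.51) and the values as deposited (-1.28 and -1.16).

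A place within the array does not depend on its brightness. CCS was brighter than 41.1% ± 5.2 of the probes of its array in psah2 and than 25.5% ± 2.5 in WT (SD, n = 6 each). Each psah2 array was above each WT array. The share of all probes separated in this way by rank was not counted, so the separation is not read as particular to CCS. By rank PRK, LHCB1.5 and FTRC were separated in the same way, and NTRC was not. The difference of 15.6 percentage points had an exact 2-sided permutation p of 0.00216, the smallest that 924 splits of the 12 arrays can give, and an adjusted p of 0.00596 over all 3439 probes. SRX was brighter than 54.5% ± 4.8 of its array in psah2 and than 39.7% ± 5.5 in WT, with 1 WT array, replicate 2, above the lowest psah2 array. Its difference was 14.8 points (exact permutation p = 0.00433, adjusted p = 0.0109). By this test 22.2% of all probes stood higher in psah2. Probes at 0 count as dimmer, and psah2 arrays held more of them. Among probes above 0 on all 12 arrays the differences were 10.1 points for CCS (exact permutation test, adjusted p = 0.012) and 13.1 points for SRX (adjusted p = 0.0185), and 31.4% of those probes stood higher. CCS was near the dim end of these 2133 probes, brighter than 16.1% of them in psah2 and 6.05% in WT. For SRX these shares were 32.4% and 19.3%. Ranks and quantile normalization use the same order of the probes and are not independent of each other.

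**Figure D3:**
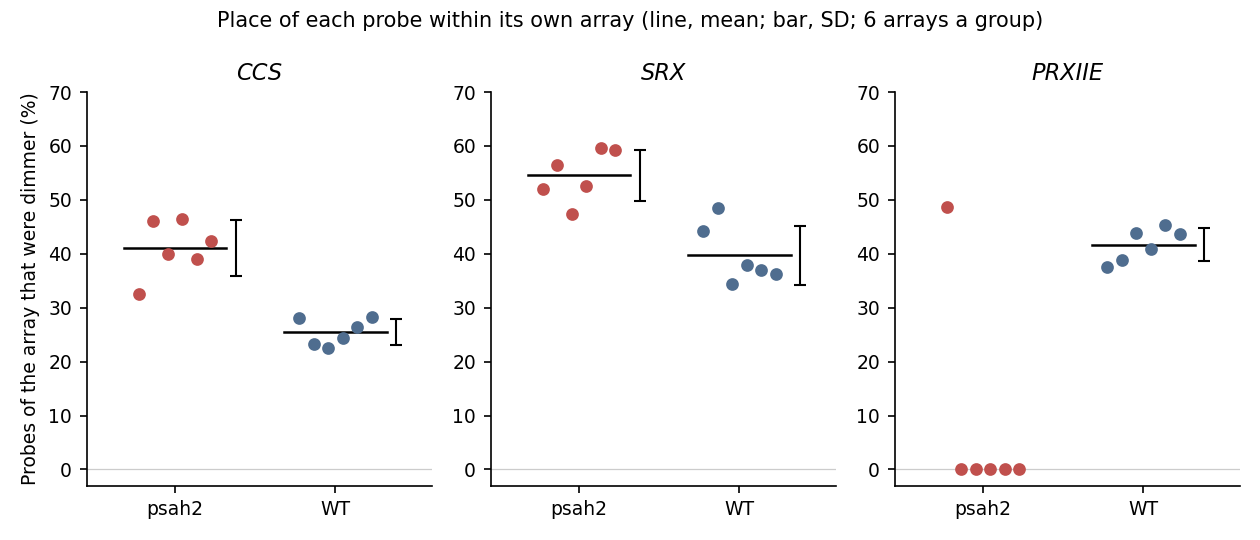
Percent of the 3439 probes of the same array that were dimmer than the probe (vertical axis) for CCS, SRX and PRXIIE on each of 6 psah2 and 6 WT arrays, with the mean as a line and the SD as a bar except for PRXIIE in psah2. CCS and SRX sit higher in psah2, while PRXIIE lies between 37.6% and 45.4% in WT and at 0 on 5 psah2 arrays.

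No difference between the changes of CCS and SRX was detected. Their ratio within an array, which a linear scaling cannot alter, was -0.91 ± 0.44 on the log2 scale in psah2 and -0.78 ± 0.33 in WT (SD, n = 6 each). It ran from -1.53 to -0.43 in psah2 and from -1.37 to -0.41 in WT, so the groups overlapped almost fully. The difference of -0.13 was smaller than either SD and did not pass the test (exact permutation p = 0.587), which does not show that the genes changed equally.

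PRXIIE, the stromal peroxiredoxin, had a deposited intensity of 0.0870 on psah2 replicate 1 and was listed at 0 on psah2 replicates 2 to 6. On WT arrays it ran from 0.260 to 0.285 with a median of 0.268. The coefficient of variation over the WT arrays was 3.32%, against 13.1% for CCS and 25.3% for SRX. With each value divided by the median of its array these were 9.37%, 13.2% and 15.7%, so most of that contrast was lost. Even the psah2 array with a value was 2.98 times below the lowest WT array. No mean, fold change or limma fit is given, since 1 value above 0 in psah2 is too few and a probe listed at 0 gives no level.

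The only psah2 value of PRXIIE above 0 was lower than WT by about as much as the median probe. It stood at 32.2% of the WT mean, a log2 change of -1.63, next to the median of -1.64 for all tested probes as deposited. Within its array that probe was brighter than 48.7% of the others, against 37.6% to 45.4% on WT arrays. Probes at 0 count as dimmer there, and psah2 arrays held more of them. On the quantile-normalized log2 scale, which leaves zeros out, the value was -2.64, within the WT range of -2.97 to -2.56. The pattern of PRXIIE therefore rests on the 5 arrays at 0.

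In arrays listed at 0 the groups differed by 5 of 6 psah2 against 0 of 6 WT (Fisher's exact test, 2-sided, p = 0.0152). Adjusted over all 3439 probes this p became 0.453, and no probe with more zeros in psah2 passed that test after adjustment. Not even the 66 probes at 0 on all 6 psah2 arrays and on no WT array passed. With 6 arrays a group the adjusted test could therefore not have passed PRXIIE, and its result says little. At an unadjusted p below 0.05, 112 probes, or 3.26%, had more zeros in psah2. Ranked within the array, PRXIIE was lower in psah2 (exact permutation p = 0.0152, adjusted p = 0.0326 over all probes), as were 26.8% of all probes. A probe at 0 ranks lowest, so this difference rests on the same 5 zeros and is not separate evidence. CCS and SRX were listed at 0 on no array.

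Of the 2908 probes above 0 on all 6 WT arrays, 2133 were also above 0 on all 6 psah2 arrays. The share at 0 on at least 5 psah2 arrays was 3.75%, or 109 probes, which is 3.17% of the whole table. These 109 included 19 that name a single gene, PRXIIE among them. The mirror pattern, above 0 on all 6 psah2 arrays and at 0 on at least 5 WT arrays, was found for 3 probes. In 43 cases exactly 5 psah2 arrays were at 0, and in 3 of these the remaining value was on replicate 1, as for PRXIIE. Values above 0 reached far below the 0.0870 of that array, with the lowest on any psah2 array between 5.80e-06 and 1.96e-04.

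**Figure D4:**
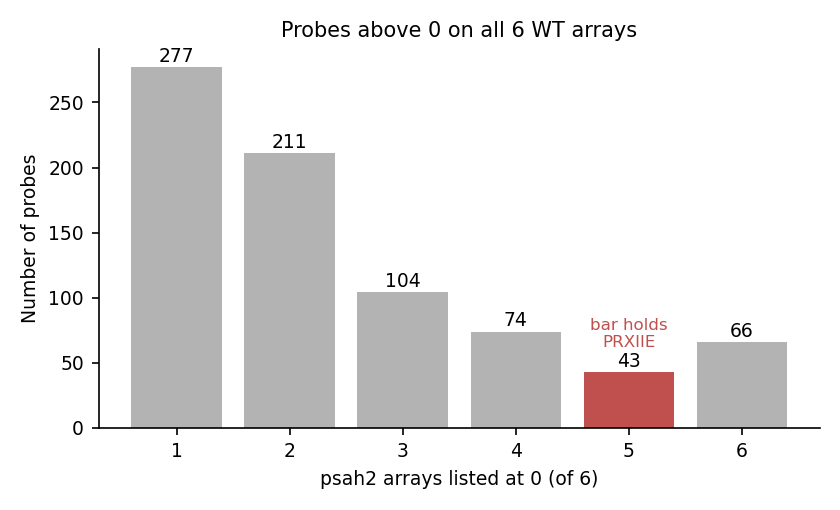
Number of probes (vertical axis) by how many of the 6 psah2 arrays list them at 0 (horizontal axis), among the 2908 probes above 0 on all 6 WT arrays, leaving out the 2133 at 0 on no psah2 array. PRXIIE is among the 43 probes at 0 on 5 psah2 arrays, shown in red, beside 66 probes at 0 on all 6.

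The genes around these members could be followed only in part. Of 75 listed genes of superoxide dismutases, peroxiredoxins, the ascorbate-glutathione cycle, glutathione peroxidases, catalases, plastid thiol donors and copper supply, 5 had a probe of their own. Besides the 3 members these were NTRC (AT2G41680) and FTRC (AT2G04700), which pass electrons towards peroxiredoxins. Another 9 genes were annotated only on probes with several genes, which are not named to 1 gene here. No superoxide dismutase, ascorbate peroxidase or typical 2-Cys peroxiredoxin had a probe annotated with it alone, so the clients of CCS and SRX could not be followed. The annotation listed no gene for 1877 of the 3439 probes.

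FTRC, the catalytic subunit of ferredoxin-thioredoxin reductase, ran from 0.408 to 0.466 in deposited intensity in psah2 and from 0.157 to 0.213 in WT. Every psah2 array was above every WT array, as for 5.93% of all probes, whereas the deposited intensities of CCS, SRX and PRXIIE were lower in psah2. FTRC rose, with a log2 change of 1.30 as deposited (limma, adjusted p = 2.53e-07) and of 2.76 after quantile normalization (SE 0.09, adjusted p = 1.08e-09). On the normalized scale CCS and SRX were called in the same direction, at 0.71 and 0.51. NTRC, the plastid NADPH-thioredoxin reductase that reduces 2-Cys peroxiredoxins, ran from 0.0901 to 0.144 in psah2 and from 0.293 to 0.399 in WT. Its log2 change was 0.01 after normalization (SE 0.11, 95% interval -0.23 to 0.25, limma, adjusted p = 0.964) and -1.56 as deposited (adjusted p = 7.21e-07). As deposited NTRC fell by about as much as the median probe. By its place within the array NTRC was called higher, with 54.5% of probes dimmer in psah2 and 49.9% in WT (exact permutation p = 0.0216, adjusted p = 0.0447). Of the 2 donors, 1 was thus called higher by limma on the normalized scale, where 25.2% of tested probes were, and both were called higher by rank, where 22.2% of all probes were.

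The consecutive replicates 1 and 2, 3 and 4, and 5 and 6 resembled each other more than other pairs of their group did. Deviations from the group mean were correlated across 2133 probes above 0 on all arrays. Between such pairs r ran from 0.316 to 0.487 in WT and from 0.0037 to 0.121 in psah2. All other pairs within a group were below -0.16. Deviations from a shared mean tend to correlate negatively by construction, so the likeness in psah2 shows only against the other pairs. For SRX the means of these pairs were 0.112, 0.0926 and 0.146 in psah2 and 0.344, 0.230 and 0.210 in WT, with differences inside a pair of at most 0.0363. With the pairs averaged to 3 values a group, CCS still passed the test (limma, log2 change 0.71, adjusted p = 0.0243), as 19.3% of tested probes did in that direction, and SRX did not (log2 change 0.51, adjusted p = 0.131). PRXIIE was then at 0 in 2 of 3 psah2 pairs and in 0 of 3 WT pairs (Fisher's exact test, p = 0.4), a comparison that cannot give a p below 0.1 with 3 against 3.

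The 1-gene probes whose normalized log2 intensity was most like that of a member were sought over the 12 arrays. For CCS, among 419 probes above 0 on all arrays, they were AT5G44000 (r = 0.813), AT5G50350 (r = 0.807) and AT3G54210 (r = 0.803). After the group means were taken out r was 0.400, 0.346 and 0.568, so much of the likeness was the difference between the groups. For SRX they were AT5G38360 (r = 0.893), AT1G69910 (r = 0.839) and AT3G15900 (r = 0.836). With the group means taken out r was 0.853, 0.653 and 0.733 for these. The same 12 arrays chose these probes among 419, so a high r here is partly fixed by the choice. It may also reflect the likeness of consecutive replicates, which was not tested. The choice by likeness over both groups largely fixed the direction of these 6 genes after normalization, where their log2 changes ran from 0.67 to 2.05. As deposited their log2 changes ran from 0.25 to 1.87, against -1.28 for CCS and -1.16 for SRX, and are given as a description without a test. PRXIIE had values on only 7 arrays, 6 of them WT, and its nearest probes, AT4G30680 (r = 0.896), AT5G49120 (r = 0.870) and AT4G14380 (r = 0.854), describe little beyond the spread within WT.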

How the data were processed

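The authors deposited 1 linear intensity per probe and array, from 0 to 100. No label or file header used here says how they were scanned, corrected or scaled. All 12 columns were mapped by the sample titles. Probes were named from the platform annotation and a RefSeq gene table of assembly TAIR10.1, which matched 690 of 692 probes with 1 gene. The name PRXIIE is background knowledge, and coordinates are left out because no genome build is named for the probes. Probe sequences were not used here to check the annotation.

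Values at 0 were left missing, log2 intensities were quantile-normalized, and probes with at least 4 values in each group were tested with limma 3.58.1 (lmFit, eBayes; R 4.3.3), 2-sided, without a covariate, adjusted by Benjamini-Hochberg at 0.05 over 2643 probes. Ranks were tested over all 924 splits of the arrays and zeros with Fisher's exact test (SciPy 1.17.1). Their p-values were adjusted over all 3439 probes in place of the 3 genes first planned. The 6 arrays a group limit the precision. The fit was also run on simulated data, where the check asked only for recovery of the largest built-in changes and a limited number of false calls. Those data had independent arrays, no zeros and no shift between the groups as a whole. They therefore do not test the smaller changes of CCS and SRX.

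The members and lists were chosen with earlier results of these data known. Named are the members, other listed genes with their own probe and the 3 most alike 1-gene probes of each member. Same-numbered arrays deviated together with r from 0.0556 to 0.171, all above 0 but not above 0.1 for numbers 3 and 4. The main fit did not pair the samples by number, a choice that these values do not settle. The replicate number entered limma as a block only among the alternatives, and the rank and zero tests did not use it. Alternatives were other scalings, filters, a floor of 5.80e-06 for zeros, the replicate number as a block, averaged consecutive replicates, array weights, another variance prior and each array left out.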

Additional observations from a re-analysis of the deposited data

Results flagged for a closer look

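Each group of 6 arrays of the named genes was tested for an array that stands apart, by the gap to its nearest neighbour over the range of the group. Chance passes this test in about 1 of 20 groups, and 2 of 32 groups passed. For PRXIIE, psah2 replicate 1 had an intensity of 0.0870 while the other 5 psah2 arrays were at 0, a gap over range of 1. With 5 values tied at 0 any single value gives this result, so it only restates the zeros and says nothing beside the chance rate. For AT3G54210, psah2 replicate 2 was above the others, at a normalized log2 intensity of 0.75 against a mean of 0.50 (gap over range 0.635).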

How the results depend on the processing

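The log2 changes of CCS (0.71) and SRX (0.51) turned to -1.28 and -1.16 in the values as deposited, where the median of all tested probes was -1.64. With median-centred arrays they were 0.14 and 0.27 and no longer passed the test, and with consecutive replicates averaged SRX, at 0.51, did not pass. With the replicate number as a fixed block both calls held (adjusted p = 0.0184 for CCS and 0.0247 for SRX), and the block gave 654 higher and 938 lower probes. Leaving out single arrays gave 0.63 to 0.82 for CCS and 0.44 to 0.60 for SRX, always past the threshold. NTRC, near 0, turned to -1.56 as deposited and -0.13 with median-centred arrays, and ranged from -0.0447 to 0.0540 without single arrays. The counts of 667 higher and 958 lower probes became 251 and 2049 as deposited, and 992 and 448 when arrays were centred on medians that include zeros, an alternative chosen after seeing the data. With averaged replicates the rank differences of 15.6 (CCS), 14.8 (SRX) and -33.6 points (PRXIIE) did not pass, since 3 against 3 cannot reach an exact p below 0.1. PRXIIE was then at 0 in 2 psah2 values. That alternative was also added after seeing the data. The group difference in the log2 ratio of CCS to SRX changed sign, from -0.13 in deposited values to 0.20 in quantile-normalized values. It passed the test in neither. For PRXIIE a log2 change could be fitted only with zeros set to a floor, which alone sets its size, so none is given. Ratios to PRXIIE could not be tested with 1 psah2 value.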
